A study of Sus scrofa with 12 samples.

Results

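Platelet-derived growth factors (PDGF) and fibroblast growth factors (FGF), with the receptor tyrosine kinases that bind them, were described across 4 groups of interstitial cells from the aortic valve of the pig (Sus scrofa), the cells that build and maintain the matrix of the leaflet. Of 8 genes looked for by name (PDGFA, PDGFB, PDGFRA, PDGFRB, FGF2, FGF7, FGFR1 and FGFR2), 7 were named in the gene table of 22861 rows, and all 7 passed the filter on low values, as 13046 genes did in all. FGF7 had no row under that name. A row without a name carried the Entrez number of FGF7, and it is described separately as the FGF7 row and not counted among the 7.

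The cells had been grown on glass, which the labels give as the stimulus for calcification, in DMEM for up to 12 days. Stage 1 libraries came from day 5 and Stage 2 libraries from day 8. Cells that had reached Stage 3 received either KPT or the solvent DMSO, and the labels do not state the day of these libraries. Each group held 3 biological replicates, which makes 12 libraries in all. Several compounds coded KPT block XPO1, the receptor that carries many proteins out of the nucleus. The labels state neither which of them was used nor its dose and time of exposure. All 4 groups share the glass surface and the medium, so no comparison holds cells without the stimulus. The labels of Stage 1 and Stage 2 name no solvent. Stage, day in culture and solvent therefore cannot be told apart where Stage 3+DMSO is compared with an earlier stage. Whether the replicates came from separate animals is not stated, so p-values measure only the spread between these cultures, which may be technical.

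PDGF ligands are dimers that bring a pair of receptor chains together. PDGFA chains bind the receptor chain PDGFRA, while PDGFB chains bind both PDGFRA and PDGFRB. FGF2 and FGF7 bind their receptors together with heparan sulfate, the sugar chain of cell-surface and matrix proteoglycans. FGF2 acts through several FGF receptors, and FGF7 acts on the splice form of FGFR2 typical of epithelium. Receptor signals run through RAS and the ERK kinases and are dampened by proteins, such as the Sproutys, that the same signal can induce. Fibroblast-like cells usually carry both PDGF receptors and FGFR1, and PDGF and FGF signals drive their proliferation and migration.

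The reads behind the values, recovered from the RPKM (reads scaled to exon length and to the size of the library), gave library totals of 13188023 to 24724019. Replicates correlated at 0.985 to 0.994 on the log2(RPKM + 1) scale over the genes tested. The cells carried the markers of their label. VIM averaged 4606 to 10720 RPKM over the 4 groups and COL1A2 3989 to 9724 RPKM, and 9 of 10 interstitial or fibroblast markers were found. Their summed level was 18000 to 19070 RPKM in Stage 3+KPT libraries, against 31500 to 33480 RPKM in Stage 3+DMSO libraries. The markers did not move as one. DCN averaged 465 RPKM with KPT and 366 RPKM with DMSO, and LUM averaged 498 RPKM with KPT and 398 RPKM with DMSO. The other interstitial markers found were lower with KPT in the mean, FN1 only slightly (4167 RPKM with KPT and 4517 RPKM with DMSO). The 9 endothelial markers found (of 10) summed to 34.8 to 40.6 RPKM with KPT, and to 64.2 to 67.5 RPKM at Stage 1, 63.0 to 69.8 RPKM at Stage 2 and 68.9 to 86.4 RPKM at Stage 3+DMSO. Most of that sum was ERG, at 26.6 RPKM with KPT and 61.0 RPKM with DMSO, followed by PECAM1 at 5.67 RPKM with KPT and 8.00 RPKM with DMSO, while VWF and KDR were at most 0.0922 RPKM in any library. The 8 leukocyte markers summed to 13.2 to 15.6 RPKM with KPT and 14.4 to 15.2 RPKM with DMSO, with CD14 at 10.7 RPKM with KPT and 12.1 RPKM with DMSO and PTPRC at most 0.0184 RPKM in any library. Cardiomyocyte, epithelial, adipocyte and erythroid markers summed to at most 1.48 RPKM. The 6 smooth muscle or pericyte markers found (of 8) summed to 251.7 to 256.4 RPKM with KPT, and to 1203 to 1253 RPKM at Stage 1, 1118 to 1409 RPKM at Stage 2 and 626.6 to 670.9 RPKM at Stage 3+DMSO. Among them CNN1 was at 62.3 RPKM with KPT and 384 RPKM with DMSO, while RGS5 was at 52.9 RPKM with KPT and 3.27 RPKM with DMSO. Interstitial cells also use several of the smooth muscle genes, and the part of smooth muscle, endothelial or leukocyte cells in the results below was not tested.

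At Stage 3, FGF2 rose 14.7-fold with KPT in the mean, the FGF7 row rose 7.17-fold, and PDGFA fell to 7.96 RPKM, against 41.1 RPKM with DMSO. FGFR2 fell to 9.25 RPKM with KPT, against 23.6 RPKM with DMSO. PDGFRB and FGFR1 fell by 0.38 and 0.23 on the log2 scale, and the receptor PDGFRA and the ligand PDGFB did not pass the test. Of the 7 named genes, 1 was higher with KPT, 4 were lower and 2 did not pass, while 60.0% of all genes tested passed in this comparison, so the number of calls is near the background and the sizes carry the description. In bulk RNA, fewer cells of a kind and less RNA per cell cannot be told apart.

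Along the stages the receptor chains moved in different directions. From Stage 1 over Stage 2 to Stage 3+DMSO, PDGFRB averaged 72.7, 90.7 and 152 RPKM and FGFR1 averaged 68.7, 83.4 and 111 RPKM. PDGFRA averaged 108, 142 and 65.1 RPKM, and FGFR2 averaged 32.8, 30.8 and 23.6 RPKM. The FGF7 row averaged 443, 515 and 104 RPKM. Of the 7 named genes, 4 were higher and 0 lower at Stage 2 than at Stage 1, where limma called 40.7% of all genes. Against Stage 2, 3 were higher and 2 lower at Stage 3+DMSO, with 44.1% of all genes called. Against Stage 1, 4 were higher and 3 lower at Stage 3+DMSO, with 47.7% of all genes called. The libraries of the groups did not overlap for 4 of the 7 genes at Stage 2 against Stage 1 (52.5% of all genes tested), 5 at Stage 3+DMSO against Stage 2 (51.1%), 7 at Stage 3+DMSO against Stage 1 (59.0%) and 5 at KPT against DMSO (65.2%). The 3 stage comparisons share libraries, as does the KPT comparison through the DMSO group, so their calls are not independent of each other.

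**Figure D1:**
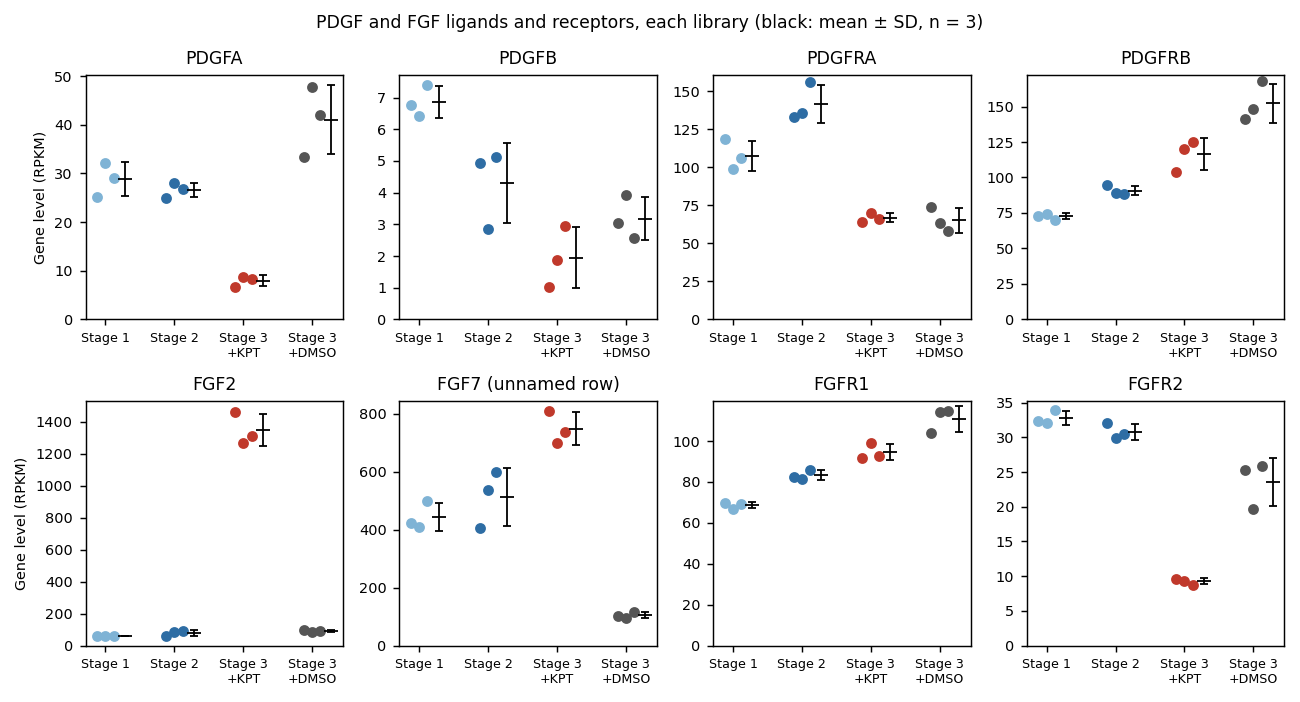
Level of each gene in RPKM in every library, in 1 panel per gene. Points are libraries and black marks are the mean ± SD of 3 libraries. FGF2 was at 1267 to 1460 RPKM in Stage 3+KPT libraries and at most 99.2 RPKM in every other library, and PDGFA was at 6.73 to 8.75 RPKM with KPT and at least 25.03 RPKM in every other library.

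**Figure D2:**
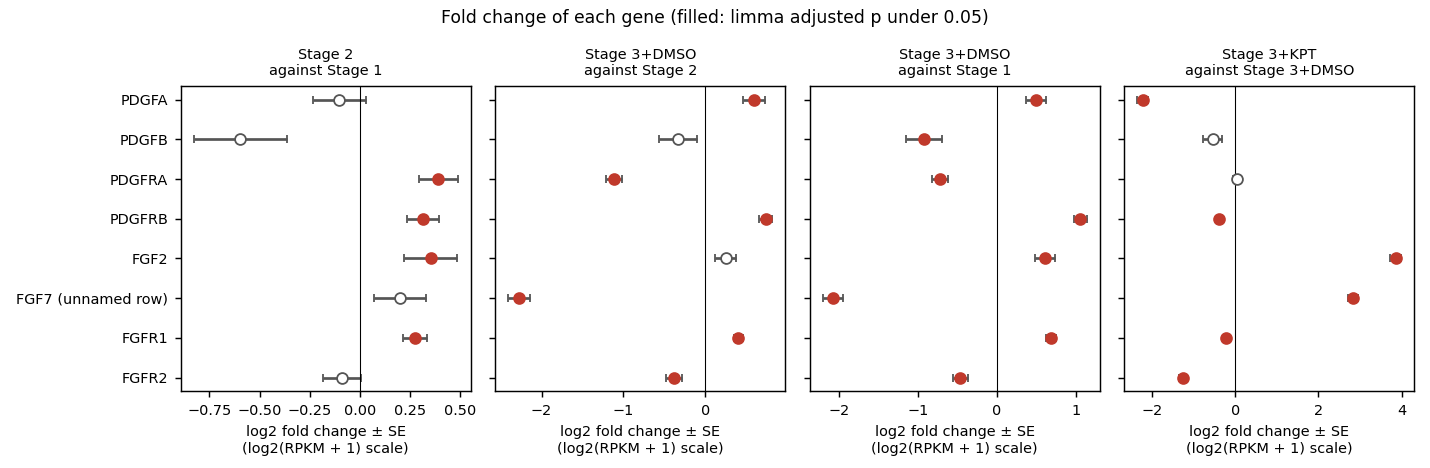
Log2 fold change ± SE of each gene in the 4 comparisons, on the log2(RPKM + 1) scale. Filled points passed limma's adjusted p threshold of 0.05. With KPT against DMSO, FGF2 and the FGF7 row lay at 3.86 and 2.83 and PDGFA and FGFR2 at -2.23 and -1.25, while the other 4 points lay between -0.54 and 0.04.

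PDGFA encodes the PDGF-A chain, a ligand for PDGFRA (ENSSSCG00000007541, chromosome 3, 154800 to 169916, minus strand, in the coordinates of the deposited tables, whose build is not stated in the labels or headers). With KPT its level was 6.73, 8.75 and 8.40 RPKM. It was 25.1, 32.1 and 29.1 RPKM in the Stage 1 libraries, 25.03, 27.97 and 26.87 RPKM at Stage 2 and 33.5, 47.7 and 42.1 RPKM at Stage 3+DMSO. Every KPT library lay below every other library. Stage 1 and Stage 2 overlapped, while the DMSO libraries lay above both. The fold change between Stage 2 and Stage 1 was -0.10 on the log2(RPKM + 1) scale, with a limma adjusted p of 0.567. Stage 3+DMSO was higher than Stage 2 by 0.59 (adjusted p = 0.00302) and higher than Stage 1 by 0.49 (adjusted p = 0.00839). KPT against DMSO gave -2.23 (SE 0.13, limma adjusted p = 1.78e-08), and by size of fall PDGFA ranked 197 among the 13046 genes tested. The RNA fell along its length: of 6 exons with at least 10 reads in all, 5 were lower in every KPT library than in every DMSO library, at 0.132 to 0.204 of the DMSO mean over the 6. The last of these exons, of 56 bases, had 0 to 3.55 RPKM in any library.

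PDGFB, the chain that binds both PDGF receptors, was the lowest of the 7 in all 4 groups (ENSSSCG00000021641, chromosome 5, 6331337 to 6333160, minus strand, 482 exon bases listed). In KPT libraries it had 1.04, 1.87 and 2.94 RPKM. It had 6.76, 6.42 and 7.41 RPKM at Stage 1, 4.94, 2.86 and 5.13 RPKM at Stage 2 and 3.04, 3.92 and 2.57 RPKM at Stage 3+DMSO. These values rest on few reads, 62 over the 3 KPT libraries (95% Poisson interval 48 to 79, counting error only) and 93 over the 3 DMSO libraries (75 to 114). Only the contrast of Stage 3+DMSO with Stage 1 passed among the stages, at -0.92 (SE 0.23, limma adjusted p = 0.00578), and its libraries did not overlap. Stage 2 lay below Stage 1 in every library, at -0.60 with adjusted p = 0.0579, and Stage 3+DMSO overlapped Stage 2 (-0.33, adjusted p = 0.273). KPT overlapped DMSO, at -0.54 with adjusted p = 0.061. Without Stage 3+KPT replicate 3 the last contrast was -0.78 with adjusted p = 0.0118. The contrast of Stage 2 with Stage 1 passed in 2 of 17 alternatives, with library quality weights (-0.91, adjusted p = 0.00161) and in a fit of both groups alone (adjusted p = 0.0364).

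The ratio of PDGFA to PDGFB, both per exon length, was 2.86 to 6.49 with KPT. It was 3.72 to 5.00 at Stage 1, 5.07 to 9.78 at Stage 2 and 11.03 to 16.35 at Stage 3+DMSO. The KPT and DMSO ranges did not overlap, and the difference in mean log2 ratio was -1.55. An exact two-sided permutation test gave p = 0.1, the smallest that 3 libraries against 3 allow (adjusted p = 0.114 over the 16 ratio tests made). The PDGFA row lists 1252 exon bases and the PDGFB row 482, so the size of the ratio depends on the exons listed. In KPT libraries it also rests on only 7, 20 and 35 reads of PDGFB.

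PDGFRA encodes the receptor chain that binds PDGF-A, PDGF-B and PDGF-C. Its named row (ENSSSCG00000008841, chromosome 8, 43008336 to 43046215, plus strand) carries the biotype processed_transcript in the files. KPT libraries had 64.3, 70.1 and 66.2 RPKM. The stages had 118, 98.7 and 106 RPKM at Stage 1, 133, 136 and 156 RPKM at Stage 2 and 74.0, 63.2 and 58.0 RPKM at Stage 3+DMSO. KPT lay within the DMSO range, Stage 2 lay above Stage 1, and Stage 3+DMSO lay below both earlier stages. Stage 2 was higher than Stage 1 by 0.39 (SE 0.10, limma adjusted p = 0.00607). The contrast of Stage 3+DMSO was -1.12 with Stage 2 (SE 0.10, adjusted p = 2.81e-06) and -0.72 with Stage 1 (adjusted p = 6.05e-05). All 24 distinct exons with at least 10 reads were lower in every Stage 3+DMSO library than in every Stage 2 library, at 0.272 to 0.531 of the Stage 2 mean. Exons that overlap share reads. KPT against DMSO gave 0.04 with a standard error of 0.10 (adjusted p = 0.709), and 1 of the 24 exons was higher in every KPT library.

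An unnamed row nearby on the other strand carries the Entrez number of PDGFRA as well (ENSSSCG00000028873, chromosome 8, 43067823 to 43081688, minus strand). It averaged 63.5 RPKM with KPT and 107, 138 and 62.5 RPKM from Stage 1 to Stage 3+DMSO. The named row averaged 66.9 RPKM with KPT and 108, 142 and 65.1 RPKM from Stage 1 to Stage 3+DMSO. The same comparisons passed in both rows. The call at Stage 2 against Stage 1 was lost in 2 of 17 alternatives for the unnamed row and in 0 of 17 for the named row.

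PDGFRB, the receptor chain for PDGF-B and PDGF-D, is a marker of mural cells and fibroblasts (ENSSSCG00000014442, chromosome 2, 157910126 to 158077825, minus strand). With KPT it had 104, 120 and 125 RPKM. It had 73.2, 74.5 and 70.3 RPKM at Stage 1, 94.4, 89.4 and 88.2 RPKM at Stage 2 and 141, 148 and 168 RPKM at Stage 3+DMSO. KPT lay below every DMSO library and above every Stage 2 library, and no stage overlapped another. The log2 fold change was 0.32 at Stage 2 against Stage 1 (limma adjusted p = 0.00702), 0.74 at Stage 3+DMSO against Stage 2 (adjusted p = 1.59e-05) and 1.05 at Stage 3+DMSO against Stage 1 (adjusted p = 5.21e-07). KPT against DMSO gave -0.38 (SE 0.08, adjusted p = 0.00104). Of 20 exons with at least 10 reads, 15 were lower in every KPT library than in every DMSO library, and some of these exons overlap and share reads. The row spans other listed genes, among them SLC26A2 and CH242-138G12.1, and 19 of its 42 exons had no read in any library. A second unnamed row with the Entrez number of PDGFRB (ENSSSCG00000022741, chromosome 2, 158113410 to 158121876, minus strand) averaged 169 RPKM with KPT and 108, 130 and 214 RPKM from Stage 1 to Stage 3+DMSO. It passed the same 4 comparisons in the same directions. Both rows list exons of 106 and 233 bases in sequence. At Stage 1 these averaged 172 and 148 RPKM in the named row and 176 and 143.5 RPKM in the unnamed row. Whether the rows share reads was not tested, so they may not be separate measurements.

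With KPT, PDGFRA had 0.617, 0.583 and 0.529 times the RPKM of PDGFRB. It had 1.62, 1.325 and 1.51 times the RPKM of PDGFRB at Stage 1, 1.41, 1.52 and 1.77 times at Stage 2 and 0.525, 0.426 and 0.346 times at Stage 3+DMSO. By these rows PDGFRA was the higher at Stages 1 and 2 and PDGFRB in every Stage 3 library, and KPT lay above every DMSO library by a margin that was small for DMSO replicate 1. The difference in mean log2 ratio was -1.87 for Stage 3+DMSO against Stage 2, -1.80 for Stage 3+DMSO against Stage 1 and 0.43 for KPT against DMSO, each with an exact permutation p of 0.1, the smallest possible. Stage 2 and Stage 1 overlapped in this ratio (0.08, exact permutation p = 0.5). The order at the first 2 stages depends on the row that stands for PDGFRB. The length of the named PDGFRB row includes 19 exons without a read, which lowers its RPKM and raises the ratio. Over the unnamed PDGFRB row the ratio was 0.420, 0.391 and 0.377 with KPT, and 1.09, 0.888 and 1.01 at Stage 1, 0.984, 1.07 and 1.23 at Stage 2 and 0.371, 0.305 and 0.247 at Stage 3+DMSO. On that row the levels of both chains lay close together at Stages 1 and 2, with PDGFRA the lower in 1 library of each, and PDGFRB was again the higher in every Stage 3 library.

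FGF2 is the basic fibroblast growth factor, a mitogen for fibroblasts that is released without a classical secretion signal (ENSSSCG00000009086, chromosome 8, 108489471 to 108503367, minus strand). The row lists 2 exons with 291 bases in all. KPT libraries had 1460, 1267 and 1313 RPKM of FGF2. The stages had 58.9, 59.3 and 61.5 RPKM at Stage 1, 58.6, 86.3 and 89.4 RPKM at Stage 2 and 99.2, 83.0 and 93.3 RPKM at Stage 3+DMSO. Every KPT library lay far above every other library. In Stage 3+KPT libraries it ranked 88 by mean RPKM among the 13046 genes tested, and in Stage 3+DMSO libraries it ranked 1723. The log2 fold change with KPT against DMSO was 3.86 (SE 0.13, limma adjusted p = 1.23e-10), and by size of rise FGF2 ranked 24 among all genes tested. Both exons rose alike, to a mean of 1201 RPKM with KPT against 81.0 RPKM with DMSO for the 105-base exon and 1429 RPKM against 97.9 RPKM for the 186-base exon.

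The stage changes of FGF2 were small beside that. Stage 3+DMSO was higher than Stage 1 without overlap, by 0.60 (limma adjusted p = 0.00216). Stage 3+DMSO and Stage 2 overlapped (0.25, adjusted p = 0.138). Stage 2 replicate 1 lay among the Stage 1 libraries while the other 2 lay above them, and the contrast of Stage 2 with Stage 1 was 0.35 with adjusted p = 0.0457. That call was kept in 7 of 17 alternatives, whose adjusted p ran from 0.000162 to 0.18, and it was lost under limma-voom on the recovered reads (0.0891) and when either of Stage 2 replicates 2 and 3, or any Stage 1 replicate, was left out.

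The neighbouring row NUDT6, which encodes a nudix hydrolase, moved with FGF2. In human and rat, NUDT6 transcripts are known to run antisense to the end of the FGF2 transcript. Here NUDT6 (ENSSSCG00000009085, chromosome 8, 108446594 to 108489287, plus strand) ended 183 bases from the FGF2 row on the opposite strand. It had 471, 391 and 440 RPKM with KPT, against 33.2, 28.1 and 30.1 RPKM with DMSO. The log2 fold change was 3.79 (SE 0.09, limma adjusted p = 1.06e-11). The rise lay at the end next to FGF2. The last exon, of 654 bases, averaged 765 RPKM with KPT and 54.9 RPKM with DMSO, and the fourth exon, of 55 bases, averaged 920 RPKM with KPT and 34.5 RPKM with DMSO. The first 3 exons had at most 3.67 RPKM in any library of any group. The library kit keeps strand, but the counting is not stated to use it, so reads of FGF2 and of NUDT6 in this stretch cannot be told apart.

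**Figure D3:**
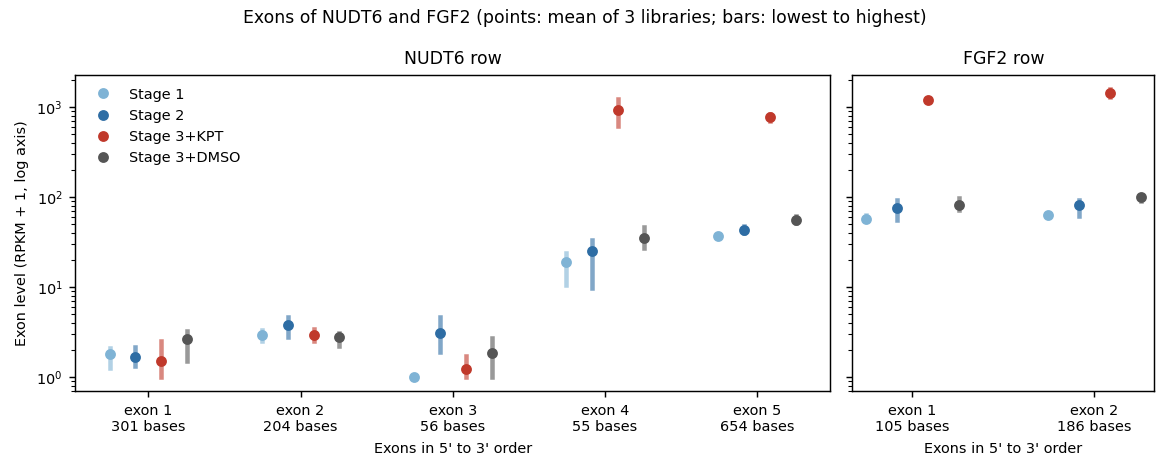
Exon levels of the NUDT6 and FGF2 rows (RPKM + 1 on a log axis), with exons in 5′ to 3′ order of each row. Points are means of 3 libraries and bars run from the lowest to the highest library. Both FGF2 exons and the last 2 NUDT6 exons stood at 765 to 1429 RPKM in the KPT mean, while the first 3 NUDT6 exons stayed at 3.67 RPKM or less in every library.

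FGF7, the keratinocyte growth factor, is made by mesenchymal cells and signals to epithelium. The FGF7 row (ENSSSCG00000020664, chromosome 1, 135926618 to 135927935, plus strand) lists 2 exons with 300 bases in all. KPT libraries had 809, 699 and 738 RPKM. The stages had 423, 408 and 499 RPKM at Stage 1, 405, 538 and 601 RPKM at Stage 2 and 104, 94.2 and 115 RPKM at Stage 3+DMSO. KPT lay above every other library and Stage 3+DMSO below every other library, while Stage 2 and Stage 1 overlapped (0.20, limma adjusted p = 0.243). Without Stage 2 replicate 1 that contrast was 0.36 (adjusted p = 0.0177), and with library quality weights it was 0.27 (adjusted p = 0.0229). Stage 3+DMSO gave a log2 fold change of -2.27 against Stage 2 (adjusted p = 1.32e-07) and -2.07 against Stage 1 (adjusted p = 1.18e-07). KPT against DMSO gave 2.83 (SE 0.13, adjusted p = 1.66e-09). KPT also exceeded Stage 1 by 0.76 (adjusted p = 0.000211) and Stage 2 by 0.56 (adjusted p = 0.00216). Both exons moved in the same direction, at 6.73 and 7.73 times the DMSO mean with KPT.

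Because RPKM is per length, the 2 FGF ligands can be compared within a library, with the limit that each row covers only some 300 bases. FGF2 had 1.78 to 1.81 times the RPKM of the FGF7 row with KPT. It had 0.123 to 0.145 times that RPKM at Stage 1, 0.145 to 0.160 times at Stage 2 and 0.809 to 0.954 times at Stage 3+DMSO. FGF2 was thus the higher in every library with KPT and the FGF7 row the higher in every other library. KPT and DMSO did not overlap in this ratio, with a mean log2 difference of 1.03 (exact permutation p = 0.1, the smallest possible).

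FGFR1 is the FGF receptor typical of mesenchymal cells (ENSSSCG00000015815, chromosome 15, 55215592 to 55269381, plus strand, 42 distinct exons). KPT libraries had 91.7, 99.3 and 92.9 RPKM. The stages had 69.8, 66.9 and 69.3 RPKM at Stage 1, 82.6, 81.6 and 86.0 RPKM at Stage 2 and 104, 114 and 115 RPKM at Stage 3+DMSO. None of the 4 groups overlapped another. The log2 fold change was 0.28 at Stage 2 against Stage 1 (limma adjusted p = 0.00251), 0.41 at Stage 3+DMSO against Stage 2 (adjusted p = 0.000152) and 0.68 at Stage 3+DMSO against Stage 1 (adjusted p = 1.61e-06). KPT against DMSO gave -0.23 (SE 0.06, adjusted p = 0.00504). Of its 42 exons, 40 were higher in every Stage 3+DMSO library than in every Stage 2 library, and 26 were lower in every KPT library than in every DMSO library. Many of the listed exons overlap and share reads, so these counts are not of separate stretches.

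FGFR2, the receptor whose epithelial form binds FGF7 (ENSSSCG00000010698, chromosome 14, 142500502 to 142570296, minus strand, 17 distinct exons), had 9.64, 9.33 and 8.77 RPKM with KPT. It had 32.3, 32.0 and 34.0 RPKM at Stage 1, 32.1, 29.9 and 30.5 RPKM at Stage 2 and 25.3, 19.6 and 25.9 RPKM at Stage 3+DMSO. KPT lay below every other library and Stage 3+DMSO below both earlier stages. Stage 2 and Stage 1 overlapped, with a contrast of -0.09 (limma adjusted p = 0.495). Stage 3+DMSO gave -0.38 against Stage 2 (adjusted p = 0.00643) and -0.47 against Stage 1 (adjusted p = 0.00153). KPT against DMSO gave -1.25 (SE 0.10, adjusted p = 1.85e-07). The fall ran along the exons listed, which may not cover the whole gene, with 16 of 17 lower in every KPT library than in every DMSO library. Many of these listed exons overlap and share reads, so they are not that many separate stretches.

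By these rows FGFR1 was the higher of the 2 receptors in every library. The FGFR1 row lists 5233 exon bases and the FGFR2 row 1927, and unlisted or unread stretches in either would change the multiples. With KPT FGFR1 had 9.51 to 10.6 times the RPKM of FGFR2. It had 2.04 to 2.16 times that RPKM at Stage 1, 2.58 to 2.82 times at Stage 2 and 4.10 to 5.82 times at Stage 3+DMSO. No 2 groups overlapped in this ratio. The mean log2 difference was 0.80 for Stage 3+DMSO against Stage 2 and 1.12 for KPT against DMSO, each with an exact permutation p of 0.1, the smallest possible.

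FGF receptors have alternative exons for the last part of the third immunoglobulin domain, called IIIb and IIIc, and the choice sets which FGFs they bind. The files do not name them. FGFR1 lists in sequence a 151-base exon (chromosome 15, 55260111 to 55260261) and a 145-base exon (55260971 to 55261115). The 151-base exon had 1.28 to 4.82 RPKM and the 145-base exon had 122 to 198 RPKM. The 151-base exon was picked as the FGFR1 exon with the lowest mean RPKM over all libraries. Its low level is thus set by that choice and is no result on splice forms. The 151-base exon held 1.93% to 2.97% of the reads of the pair in KPT libraries (95% Wilson intervals between 0.940% and 4.65%) and 1.00% to 1.99% in DMSO libraries (0.460% to 3.52%), counting error only. The share averaged 2.29% with KPT and 1.51% with DMSO, the libraries of both groups overlapped, and an exact two-sided permutation test gave p = 0.3, where 0.1 is the smallest possible. In FGFR2 the last listed exon, of 148 bases, held 0 to 3 reads in any library, where 3 reads would be 0.820 to 1.54 RPKM. The 191-base exon before it averaged 15.98 RPKM with KPT and 57.9 RPKM at Stage 1. No exon after it is listed for FGFR2.

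**Figure D4:**
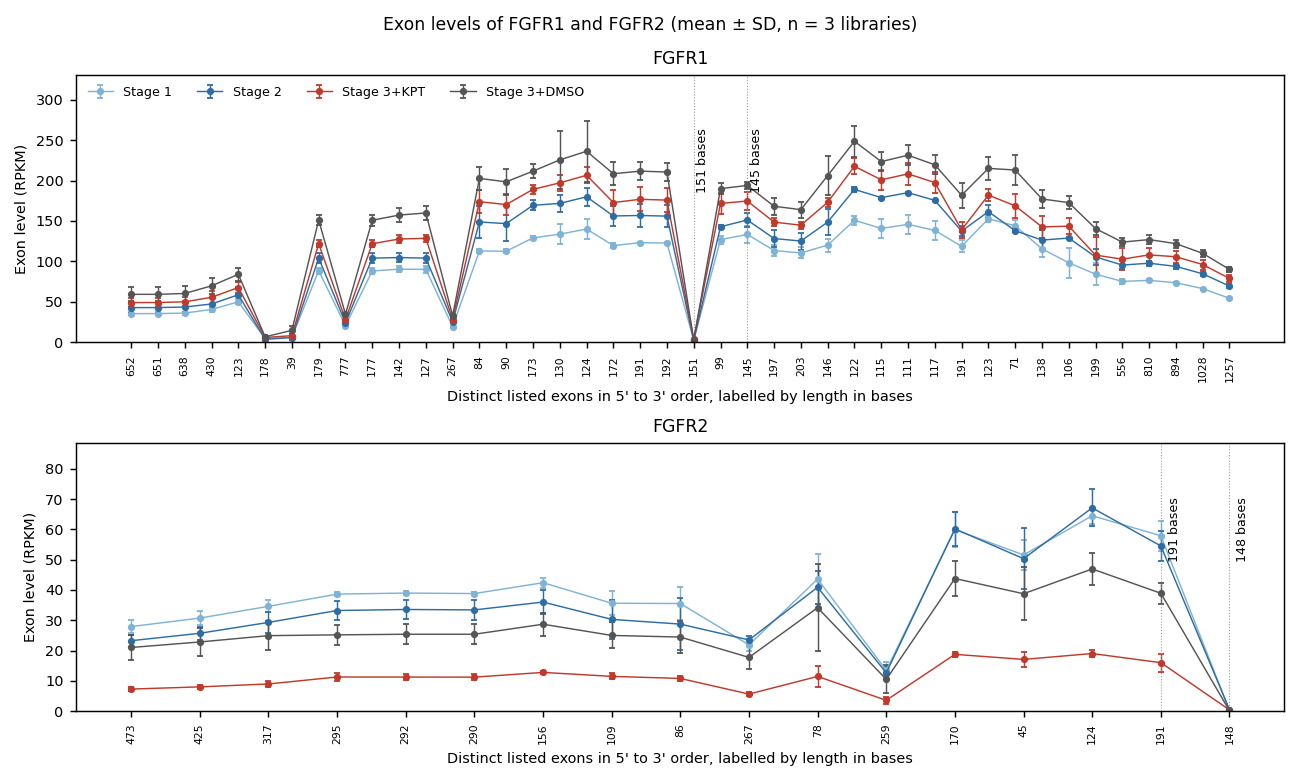
Exon levels of FGFR1 and FGFR2 in RPKM (mean ± SD of 3 libraries) for each distinct listed exon in 5′ to 3′ order, labelled by length in bases. The 151-base exon of FGFR1, picked as its exon of lowest mean, and the last, 148-base exon of FGFR2 lie near 0 in all 4 groups. The lines of the groups run in the same order along most listed exons of each gene.

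Relative use of exons was tested as the log2 ratio of exon RPKM + 1 to gene RPKM + 1 over 115541 exons. Of 108 exons of 5 of the 7 genes (FGF2 and PDGFB list too few), limma called 0 in each of the 4 comparisons. All genes together had 0.0459% of exons called at Stage 2 against Stage 1, 0.0329% at Stage 3+DMSO against Stage 2, 0.114% at Stage 3+DMSO against Stage 1 and 0.280% at KPT against DMSO. At an unadjusted p under 0.05 there were 6, 9, 6 and 1 exons in the same order of comparisons. No other tool was run on exons.

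Ordered by mean level, PDGFA and FGFR2 were lowest with KPT, and FGF2 and the FGF7 row were highest with it. PDGFRB and FGFR1 ran from Stage 3+DMSO, the highest, over KPT and Stage 2 to Stage 1. In that order, where limma called 67.5% of all genes for KPT against Stage 2 and 66.8% for KPT against Stage 1, KPT exceeded Stage 2 by 0.35 for PDGFRB (limma adjusted p = 0.00152) and 0.18 for FGFR1 (adjusted p = 0.0158). Rescaling by the median ratio ended both of these calls, with 0.17 for PDGFRB (adjusted p = 0.0874) and a value near 0 for FGFR1 (adjusted p = 0.995), and quantile normalization ended that of FGFR1 (adjusted p = 0.787). PDGFRA was highest at Stage 2, then Stage 1, and KPT and DMSO did not differ beyond their spread. PDGFB ran from Stage 1 over Stage 2 and DMSO to KPT, and no pair of neighbours in that order passed the test. Other neighbours that did not pass were Stage 1 and Stage 2 for PDGFA, FGFR2 and the FGF7 row, and Stage 3+DMSO and Stage 2 for FGF2.

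The pathway around these genes was read through a list of 118 other symbols, of which 103 were found and 84 tested. With KPT against DMSO, 38 were higher and 26 lower, which is 76.2% of the 84, where limma called 60.0% of all genes, with a median log2 fold change of 0.21 against 0.02 over all genes tested. The 84 include FGF10 and FGF14, which passed the filter only through the KPT libraries. The list of feedback inhibitors held 8 higher and 4 lower of 15 tested (80.0%, against 60.0% of all genes), with a median of 0.51. It also holds FLRT2 and FLRT3, which bind FGF receptors, so the count is not of inhibitors alone. SPRY1, which dampens RAS and ERK signals, averaged 205.5 ± 5.62 RPKM with KPT and 14.5 ± 1.52 RPKM with DMSO (SD, n = 3 each), a log2 fold change of 3.74 (limma adjusted p = 8.82e-12). DUSP4, a nuclear phosphatase of ERK, averaged 22.6 RPKM with KPT and 2.79 RPKM with DMSO (2.67). DUSP7, a cytoplasmic one, averaged 16.6 RPKM with KPT and 34.45 RPKM with DMSO, and FLRT2, a transmembrane protein of a family that binds FGF receptors, averaged 9.32 RPKM with KPT and 19.1 RPKM with DMSO (-0.96). Of 11 transcriptional targets, 7 were higher and 1 lower (72.7%, against 60.0% of all genes). ETV4, an ETS factor induced by FGF signals, averaged 155 ± 11.4 RPKM with KPT and 10.9 ± 3.09 RPKM with DMSO (SD, n = 3 each), a log2 fold change of 3.74 (limma adjusted p = 6.01e-10). IER3, an immediate early gene, averaged 224 RPKM with KPT and 52.9 RPKM with DMSO. MYC was the 1 lower target, at 14.2 RPKM with KPT and 25.2 RPKM with DMSO.

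Among enzymes that act on the ligands or on heparan sulfate, genes of related function moved in opposite directions with KPT. PLAT, the tissue plasminogen activator that also cleaves PDGF-C to its active form, averaged 2424 ± 172 RPKM with KPT and 192 ± 68.1 RPKM with DMSO (SD, n = 3 each). PLAU, the urokinase that cleaves PDGF-D, averaged 48.75 ± 4.99 RPKM with KPT and 189 ± 38.9 RPKM with DMSO (SD, n = 3 each). Their log2 fold changes were 3.71 and -1.92, with limma adjusted p of 2.26e-09 and 1.92e-08. PCSK5, a proprotein convertase, rose by 1.08, and THBS1, a matrix protein that binds FGF2, had -1.24. SULF1, which removes sulfate from heparan sulfate outside the cell, averaged 116 RPKM with KPT and 12.4 RPKM with DMSO (3.14). SULF2, with the same activity, averaged 67.1 RPKM with KPT and 180 RPKM with DMSO (-1.41), and a second ID with its symbol makes that value uncertain. HS6ST1, which adds the sulfate, averaged 163 RPKM with KPT and 32.6 RPKM with DMSO (2.29), and the core protein SDC3 averaged 27.75 RPKM with KPT and 79.2 RPKM with DMSO (-1.48). Of 16 genes in the heparan sulfate list, 6 were higher and 8 lower (87.5%, against 60.0% of all genes).

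Of the other ligands, PDGFC averaged 82.4 ± 2.94 RPKM with KPT and 31.3 ± 2.56 RPKM with DMSO (SD, n = 3 each), a log2 fold change of 1.37 (limma adjusted p = 1.45e-08). PDGFD had 11.6 RPKM with KPT and 19.1 RPKM with DMSO (-0.69), and PDGFRL, a receptor-like protein without a kinase domain, had 16.98 RPKM with KPT and 43.1 RPKM with DMSO (-1.28). Among 8 other FGF genes tested, 4 were higher and 2 lower (75.0%, against 60.0% of all genes). FGF10 and FGF14 passed the filter on low values only through the KPT libraries. Their rise was thus set by the filter, and the share is no support for a rise of the list. FGF14 averaged 12.9 RPKM with KPT and 0.273 RPKM with DMSO, and FGF12 averaged 27.5 RPKM with KPT and 4.34 RPKM with DMSO. FGF12 and FGF14 belong with FGF11 to the intracellular FGF family members that bind sodium channels and are not secreted, and FGF11 averaged 11.5 RPKM with KPT and 20.8 RPKM with DMSO. The secreted FGF9 averaged 1.46 RPKM with KPT and 2.59 RPKM with DMSO. FGF1 and FGF10, which are not of the intracellular family either, went the other way at low levels. FGF1 averaged 4.11 RPKM with KPT and 1.07 RPKM with DMSO, and FGF10 averaged 2.63 RPKM with KPT and 0.407 RPKM with DMSO. NRP1, a co-receptor, had -0.53. Of the 22 adaptors and kinases, 9 were higher and 4 lower (59.1%, near the 60.0% of all genes), with a median of 0.15. SOS1, an exchange factor for RAS, rose by 0.84 and PIK3CA, a catalytic subunit of PI3-kinase, by 0.73, while the adaptor GAB1 had -0.65 and the kinase AKT2 had -0.38.

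**Figure D5:**
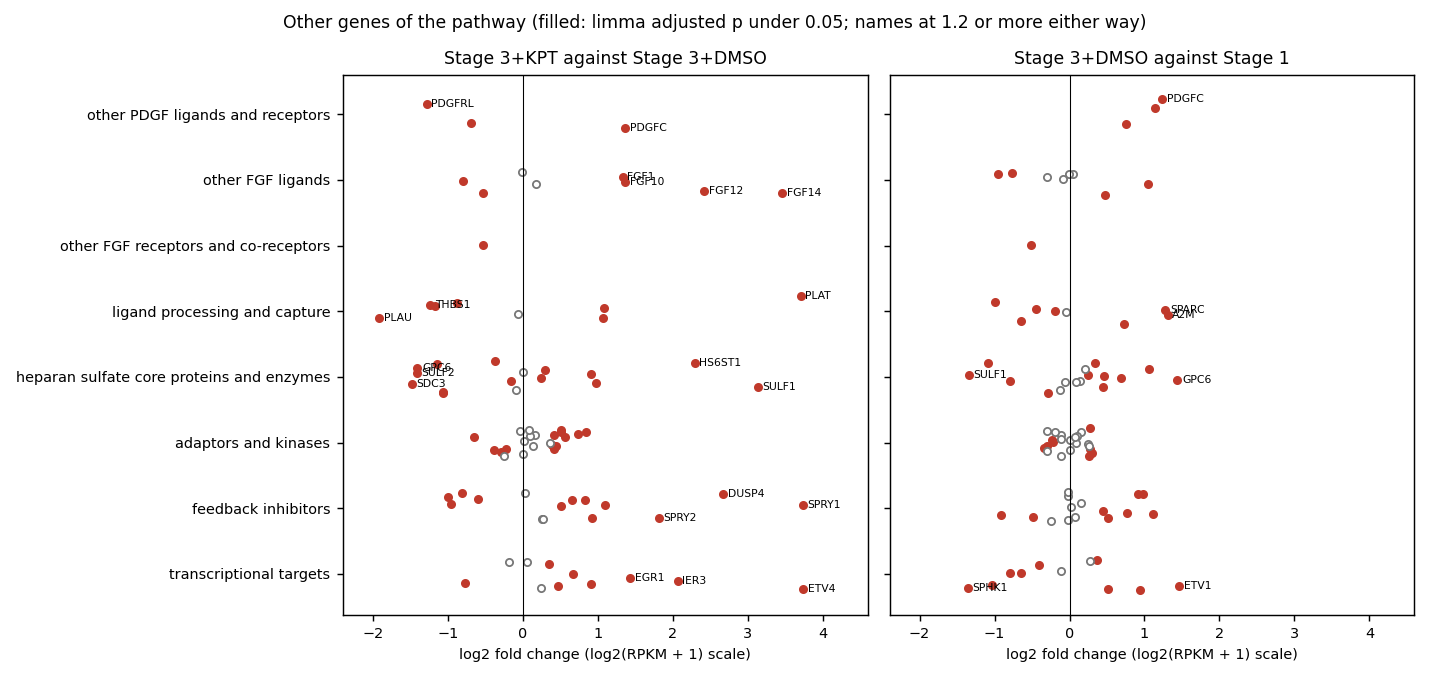
Log2 fold change of the other pathway genes by list, for Stage 3+KPT against Stage 3+DMSO and for Stage 3+DMSO against Stage 1, on the log2(RPKM + 1) scale. Filled points passed limma's adjusted p threshold of 0.05. With KPT, SPRY1, ETV4, PLAT, FGF14 and SULF1 lay above 3, and in the stage comparison no gene did.

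Over the stages the pathway list gave 14 higher and 24 lower at Stage 2 against Stage 1 (45.2% of the 84, near the 40.7% of all genes), with a median of -0.01 against -0.05 over all genes tested. Against Stage 2, Stage 3+DMSO gave 26 higher and 14 lower (47.6%, near the 44.1% of all genes), with a median of 0.09 against 0.15. Against Stage 1 it gave 29 higher and 22 lower (60.7%, against 47.7% of all genes), with a median of 0.03 against 0.10. All 3 other PDGF family genes were higher at Stage 2 than at Stage 1. PDGFRL averaged 56.8 RPKM at Stage 2 and 24.95 RPKM at Stage 1 (1.16, limma adjusted p = 8.14e-06), and PDGFD averaged 17.5 RPKM at Stage 2 and 8.09 RPKM at Stage 1 (1.02, adjusted p = 0.000559). PDGFC averaged 12.7, 22.9 and 31.3 RPKM from Stage 1 to Stage 3+DMSO. SPARC, a matrix protein that binds PDGF-B, averaged 16220 RPKM at Stage 3+DMSO and 6671 RPKM at Stage 1 (1.28, adjusted p = 2.7e-08). SULF1 had 12.4 RPKM at Stage 3+DMSO and 32.7 RPKM at Stage 1 (-1.34), while SULF2 had 180 RPKM at Stage 3+DMSO and 85.9 RPKM at Stage 1 (1.06). SPRY1 had 14.5 RPKM at Stage 3+DMSO and 6.12 RPKM at Stage 1 (1.12), and ETV1, another ETS factor, had 30.1 RPKM at Stage 3+DMSO and 10.3 RPKM at Stage 1 (1.46). MYC had 25.2 RPKM at Stage 3+DMSO and 52.1 RPKM at Stage 1 (-1.04), and SPHK1, sphingosine kinase, had 4.24 RPKM at Stage 3+DMSO and 12.3 RPKM at Stage 1 (-1.36).

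The genes whose log2(RPKM + 1) followed each member most closely over the 12 libraries are given as a description, since all libraries share the 4 groups. PDGFA was followed by RASL11B (Pearson r = 0.989), and PDGFB by GIT1 (0.925). PDGFRA was followed by NUCB2 (0.976), and PDGFRB by CH242-138G12.1 (0.996), whose row overlaps it, and by KIAA1671 (0.981). FGF2 was followed by PTP4A1 (0.999), which averaged 236 RPKM with KPT and 37.2 RPKM with DMSO. NUDT6 came next (0.998), and its reads at the end next to FGF2 cannot be told apart from those of FGF2. The FGF7 row was followed by DRAM1 (0.997), ADAMTS4 and CCL2, of which CCL2 averaged 2396 RPKM with KPT and 540 RPKM with DMSO. FGFR1 was followed by NENF (0.987) and KIAA1671 (0.984). FGFR2 was followed by TPM1 (0.994), a tropomyosin of the contractile apparatus, which averaged 589 RPKM with KPT and 6399, 5689 and 3072 RPKM from Stage 1 to Stage 3+DMSO.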

How the data were processed

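Polyadenylated RNA was sequenced from 12 libraries, made from 500 ng of RNA each with the TruSeq Stranded mRNA kit, per the labels' protocols. The submitters' processing notes name TopHat2 2.1.0, and the counter, build and annotation were not given in the sources used here. RPKM values deposited by the authors cover 22861 genes and 189618 exons. Multiplied by union exon length and a library total, 100% of the deposited RPKM values gave whole reads within 0.01 of a read, and summed over genes these were 1.75 to 1.81 times the library total, for a reason the labels do not state. Counting intervals treat each recovered read as independent and are too narrow if a read pair was counted at both ends.

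Genes were tested on log2(RPKM + 1) with limma 3.58.1 (R 4.3.3), taking genes at an RPKM of at least 1 in at least 3 libraries, all 12 libraries in 1 fit with an expression trend, and Benjamini-Hochberg adjustment over the 13046 genes tested, with calls at adjusted p under 0.05. Fold changes on this scale understate the change of low genes. Exons were filtered in the same way, a filter added after the data were seen, and the gene fit was tested on simulated data. Group ratios were tested with exact permutation. Values after ± are SD over 3 libraries.

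The members and lists were chosen with earlier results of these data known. Pathway genes are named as up to 2 called genes per direction, list and comparison with the largest fold change and no overlap between groups. Some are left out for length, and FGF1 and FGF10 are named in addition. The genes of likest pattern are up to 3 per member by Pearson correlation. Unnamed rows were matched by Entrez number in a RefSeq gene table (Sscrofa11.1), used for names only. No sequence is shown.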

Additional observations from a re-analysis of the deposited data

How the results depend on the processing

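Each of the 4 comparisons was refitted in 17 ways. These were other pseudocounts (0.1, 0.5), other filters (none, or RPKM of at least 5), median-ratio or quantile scaling, and a fit without the trend or on both groups only. The rest were weighted libraries, limma-voom on the recovered reads, a replicate block, and each library of the comparison left out. KPT against Stage 1 and against Stage 2 had 10 of these refits, without the fit on both groups only and without libraries left out. The number of named genes called stayed at 5 of 7 for Stage 3+DMSO against Stage 2 and 7 of 7 for Stage 3+DMSO against Stage 1 under all 17, ran from 3 to 5 for Stage 2 against Stage 1 and from 5 to 6 for KPT against DMSO. Relative exon use stayed at 0 calls under the 9 alternatives run for it (pseudocount 0.1, gene RPKM of at least 5, a replicate block and each library left out). Same-numbered libraries did not deviate together (r from -0.131 to 0.075 over 18 pairs, and 5 of 12 libraries correlated best with their own number), and the replicate block gave 3 calls in place of 4 at Stage 2 against Stage 1, where FGF2 had adjusted p = 0.0614, and the same number of calls in the other comparisons. Median-ratio rescaling moved the median of all genes by -0.16 at Stage 3+DMSO against Stage 2 and -0.11 against Stage 1, and the calls and directions of the named genes held under it in the 4 comparisons. The PDGFRA to PDGFRB ratio at Stage 2 against Stage 1, 0.08 in mean log2 difference, ran from -0.0136 to 0.15 when 1 library was left out, and turned to -0.0136 without Stage 2 replicate 3 and -0.00203 without Stage 1 replicate 2. With the unnamed PDGFRB row, chosen after the data were seen, that difference was 0.14 and the other 3 kept their direction. PDGFB rests on 7 to 74 reads per library. The limma-voom fit called 8101 genes with KPT against DMSO, where the RPKM fit called 7831.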
